A study of Homo sapiens with 4 samples.

Results

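Ishikawa is a human endometrial adenocarcinoma cell line that carries estrogen receptor alpha, the product of ESR1. The comparison described here sets clone B212 against clone A4, both Ishikawa derivatives whose receptor has the Y537S substitution in its ligand-binding domain. The members were the 4 libraries of these clones, chosen by the column names of the deposited count table, out of 4 samples in all. Clone A4 gave 1 library from cells given 0.1% DMSO, the vehicle, and 1 from cells given 10 nM estradiol (E2) for 8 h, and clone B212 gave the same pair. All cells had first been kept in medium stripped of hormones. The tags A4 and B212 stand in no sample label, and nothing given links them to clone 1 and clone 2 of the labels. Each tag is taken as 1 clone from its column name. The 2 libraries of a clone differ in treatment and are not true replicates, so every p-value below measures a difference between these libraries. The spread it is set against holds technical variation and any difference between the clones in the response to E2.

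The lining of the uterus derives from the Mullerian duct, and its epithelial cells are marked by transcription factors such as PAX8, SOX17 and EMX2, by keratins of simple epithelium and by E-cadherin. Carcinoma cells of this origin can also carry genes of the mesenchymal state, such as collagens and the repressors of the SNAI and ZEB families. Derivatives of 1 cell line that are grown up from single cells can differ in such programs. Y537S is known for receptor activity without hormone.

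The libraries held 71575816 to 85222856 reads counted in genes, and 15599 of 26364 genes had enough reads to be tested. Genes were compared with edgeR's quasi-likelihood test with treatment as a covariate, and a gene was called at a Benjamini-Hochberg adjusted p under 0.05. Log2 fold changes are B212 over A4 with their standard error (SE). Reads per library are given in the order DMSO and E2, and summed levels of a list in CPM, counts scaled to a common library total. Counts with 1 library left out follow in brackets, in the order without A4 DMSO, A4 E2, B212 DMSO and B212 E2. Those fits used 3 libraries and had no treatment term, and over all genes they called 5639, 5113, 3094 and 3207 genes. In each such fit 1 clone has 1 library, so its difference from the other clone is mixed with the treatment. The spread there is that between the DMSO and E2 libraries of the other clone. PCR reads without molecular identifiers are not independent molecules, so intervals on counts cover counting error only.

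The clones differed at 7950 genes, 51.0% of those tested. Of these, 3927 (25.2%) were higher and 4023 (25.8%) lower in B212, and scaling by library size alone gave 4761 and 3176. At a log2 fold change of 1 or more, 1106 genes (7.09%) were higher and 617 (3.96%) lower. Fewer genes differed by a large amount: 516 reached 2 and 109 reached 4. The median absolute log2 fold change was 0.28 over all tested genes and 0.49 over called genes. The DMSO pair and the E2 pair are separate libraries, and the difference had the same direction in both for 82.5% of tested genes, with a Pearson r of 0.87 across genes, which are not independent replicates. Both libraries of 1 clone lay above both of the other for 10529 of the 15599 tested genes. B212 lay above for 5410 and A4 for 5119. With 2 libraries on each side, such a separation can arise without a clone difference, and this count was not tested. Of the 66 gene lists described here, 9 had at most the share called of all genes: leukocyte, ciliated cell, HOX, SOX, FOX, gamma protocadherin, other protocadherin and FAT, oxidative phosphorylation and S phase genes.

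**Figure D1:**
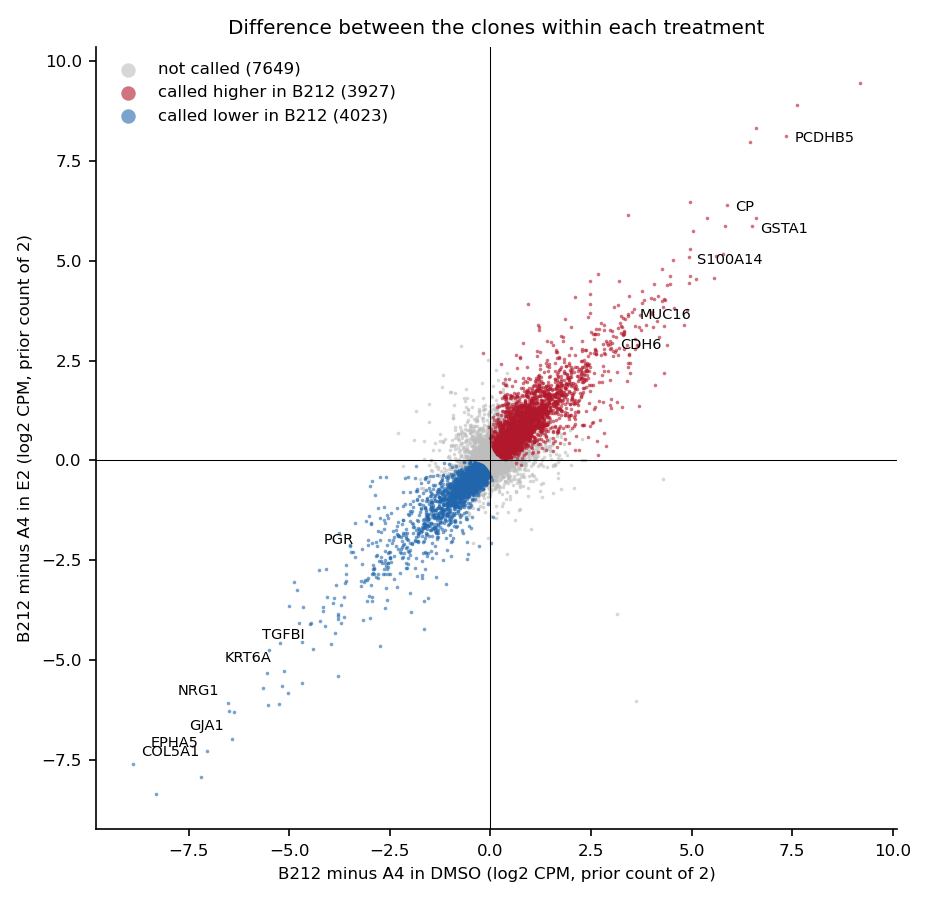
Difference between B212 and A4 in the DMSO libraries (horizontal axis) and in the E2 libraries (vertical axis), both in log2 CPM with a prior count of 2, with 1 point per tested gene. Called genes are coloured (3927 higher in red, 4023 lower in blue) and lie along the diagonal, with COL5A1, EPHA5 and GJA1 at the lower end and PCDHB5 at the upper end.

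The largest differences among well counted genes were between near absence and ample expression. DNAJC15, which encodes a DNAJ cochaperone of mitochondria, had 1 and 1 reads in A4 and 1943 and 1936 in B212. After scaling for library size by TMM this was a ratio of 1898 (95% interval 525 to 15679). PCDHB5, a clustered protocadherin, had 15 and 8 reads in A4 and 3192 and 2512 in B212. Its log2 fold change was 7.90 ± 0.17 (adjusted p = 2.18e-18). In these genes both A4 libraries were near 0 and both B212 libraries were well counted. Among the other leading genes, S100A14, a calcium-binding protein of epithelia, had 97 and 95 reads in A4 and 3520 and 2931 in B212 (5.03 ± 0.11). MAL, a raft protein of apical transport, had 103 and 140 reads in A4 and 4239 and 2958 in B212 (4.84 ± 0.12). The epithelial chemokine CCL28 had 46 and 66 reads in A4 and 1724 and 1489 in B212 (4.81 ± 0.14). STXBP6 (4.44), TMTC1 (4.14), FAM49A (5.43), WDFY4 (4.16), PCDHGA4 (4.09) and SLC6A20, a proline transporter (3.92), also rose.

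In the other direction, COL5A1, the alpha 1 chain of type V collagen, had 2098 and 1917 reads in A4 and 3 and 7 in B212, a log2 fold change of -8.66 ± 0.21 (adjusted p = 1.12e-17). GJA1, which encodes the gap junction protein connexin 43, had 29816 and 37808 reads in A4 and 420 and 432 in B212 (-6.33 ± 0.09, adjusted p = 6.21e-21). EPHA5, an ephrin receptor, had 6674 and 6526 reads in A4 and 57 and 36 in B212 (-7.19 ± 0.12). NRG1, a ligand of the ERBB receptors, had 1821 and 1576 reads in A4 and 21 and 19 in B212 (-6.45 ± 0.16). For each of these 4 genes the lowest A4 library was far above the highest B212 library. PPP1R1A, an inhibitor of protein phosphatase 1 that protein kinase A switches on (-5.69), KRT6A, a keratin of stratified epithelium (-4.97), TGFBI, a matrix protein induced by TGF-beta (-4.57), and LSAMP, a neural adhesion molecule (-4.33), followed. PDZD4 (-3.78), the aldehyde dehydrogenase ALDH3A1 (-3.66), the ankyrin ANK2 (-3.29) and the G protein subunit GNA14 (-3.05) were the last of the 12. All 23 genes named here were called with each library left out.

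**Figure D2:**
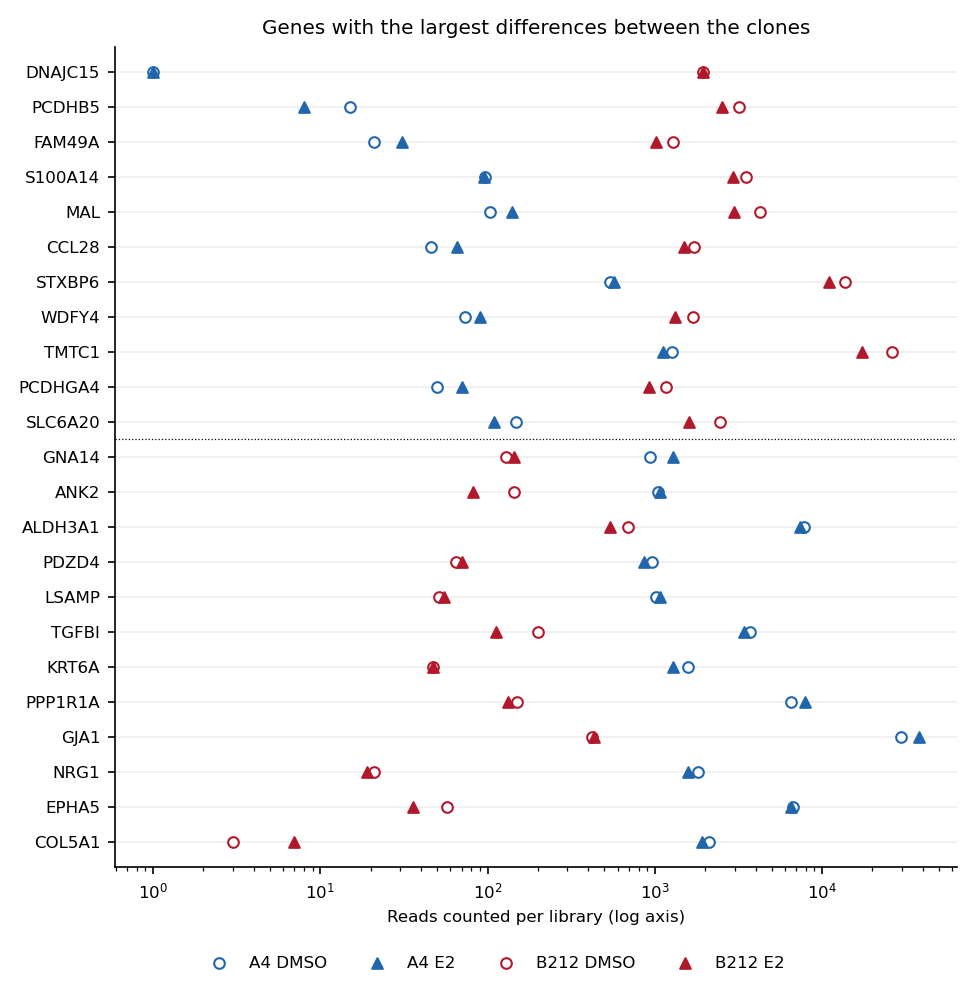
Reads counted in each library (horizontal log axis) for 11 genes with the largest rise (above the dotted line) and the 12 with the largest fall (below it) in B212 among genes with at least 10 CPM in the higher clone. Blue marks are A4, red marks B212, open circles DMSO and filled triangles E2, and the marks of the clones do not overlap for any of the 23 genes.

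Genes counted in 1 clone and absent, or nearly so, from the other (3 reads at most in both libraries of 1 clone and at least 100 in both of the other) numbered 9. PKNOX2, a TALE homeobox factor, had 588 and 673 reads in A4 and 0 and 0 in B212, at least 429.5-fold lower in B212 against a floor of 3 reads over the group. PLA2G16, a phospholipase, had 399 and 509 reads in A4 and 1 and 0 in B212, a ratio of A4 to B212 of 928 (95% interval 166 to 36686). PCDHAC1, a C-type member of the protocadherin alpha cluster, had 167 and 160 reads in A4 and 0 and 0 in B212, at least 111-fold lower in B212. C9orf129 had 135 and 142 reads in A4 and 2 and 0 in B212. These 4 were present in A4 alone by that rule. In the opposite direction stood DNAJC15, C12orf56 (3 and 0 reads in A4 and 551 and 592 in B212), NCKAP5 (3 and 0 reads in A4 and 493 and 465 in B212), LOC100130587 (3 and 3 reads in A4 and 174 and 401 in B212) and NCAM2, a neural cell adhesion molecule, which had 0 and 0 reads in A4 and 121 and 107 in B212 and was at least 74.4-fold higher in B212.

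The libraries of both clones carried the markers of the labelled cell type. EPCAM had 37012 and 45402 reads in A4 and 49113 and 42312 in B212. KRT18, a keratin of simple epithelium, had 33657 and 32164 reads in A4 and 42987 and 29811 in B212. ESR1 itself had 8049 and 7956 reads in A4 and 9163 and 6342 in B212, a log2 fold change of -0.10 ± 0.07 that did not pass the test (adjusted p = 0.252), and its ranges overlapped between the clones. Of 12 markers of endometrial and Mullerian epithelium 8 (7, 6, 4 and 7) were higher and none lower in B212, against 25.2% of all genes, and their summed level was 2483 to 2643 CPM in A4 and 3121 to 3412 CPM in B212. KRT19 (5654 and 6104 reads in A4 and 13288 and 10992 in B212, 1.01 ± 0.07), CLDN4, a claudin (2203 and 2436 against 6536 and 5029, 1.28 ± 0.08), SOX17 (2851 and 2896 against 5687 and 5489, 0.93 ± 0.08) and EMX2 (8300 and 9047 against 16879 and 13986, 0.80 ± 0.07) were called with each library left out. PAX8 (0.61) and CDH1, E-cadherin (0.50), were not called without the B212 DMSO library, where their values were 0.49 and 0.42. KRT8 (0.26) was called in no fit with a library left out (0.16 to 0.34), and MUC1 (0.62) was not called without A4 E2 (0.43) or B212 DMSO (0.49). In bulk libraries, fewer cells of a type and less RNA per cell cannot be told apart.

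Markers of stroma and fibroblasts moved the other way. Of 9 tested, 7 (7, 7, 7 and 7) were lower and 1 (1, 1, 1 and 1) higher, with a summed level of 114 to 152 CPM in A4 and 46.9 to 55.1 CPM in B212. COL1A1, the main collagen of connective tissue, had 9363 and 7581 reads in A4 and 3620 and 2531 in B212 (-1.51 ± 0.07). HAND2, a transcription factor of endometrial stroma, had 210 and 209 reads in A4 and 86 and 76 in B212 (-1.40 ± 0.18). MME, the stromal endopeptidase CD10, was lower, with a log2 fold change of -2.94 ± 0.24. WT1 (-1.26), HOXA11 (-0.65), COL3A1 (-2.40) and COL1A2 (-1.52) were also lower. THY1 was the member that was higher (87 and 113 against 290 and 234 reads, 1.36 ± 0.17). DCN and LUM, the small proteoglycans that define fibroblasts, had at most 5 reads in any library, and the part of other cells in these values was not tested.

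Markers of further cell types ranged from near absence to well counted. Among endothelial genes PECAM1 and EMCN had 0 reads in all libraries, 4 of 4 tested were called higher (3, 0, 0 and 4), and the summed level was 6.22 to 7.37 CPM in A4 and 8.89 to 11.2 CPM in B212. Leukocyte markers summed to 1.99 to 2.46 CPM in A4 and 2.99 to 3.20 CPM in B212, with CD3E, CD3D, MS4A1 and CD48 at 0 reads. Ciliated cell genes summed to 39.7 to 41.4 CPM in A4 and 88.6 to 89.7 CPM in B212, and 4 (3, 3, 3 and 3) of 9 tested were higher. Their called share was 44.4%, against 51.0% of all genes. FOXJ1, the master factor of motile cilia, had 509 and 297 reads in A4 and 1610 and 1042 in B212 (1.69 ± 0.12). CAPS, calcyphosine, had 107 and 130 reads in A4 and 1714 and 1794 in B212 (3.87 ± 0.12). RFX3, a cilia factor, had 1193 and 1447 reads in A4 and 2591 and 2370 in B212 (0.89 ± 0.08). MCIDAS (-0.046) and CCNO (0.17) were not called. DNAH5 had more reads in A4 (110 against 72 over both libraries of each clone) and was not called either. TEKT1, a protein of the axoneme, had 0 reads in all. Neuronal markers summed to 246 to 276 CPM in A4 and 275 to 313 CPM in B212: 2 (2, 1, 1 and 1) of 8 tested were higher and 3 (3, 2, 3 and 2) lower. MAP2, a microtubule protein of neurons, made up most of that sum with 11835 and 11745 reads in A4 and 15862 and 11371 in B212 and was not called (0.16). INA, an intermediate filament gene of neurons, had 6840 and 6631 reads in A4 and 9786 and 7913 in B212 and was higher (0.36 ± 0.07), as was SNAP25, a protein of vesicle release (62 and 64 against 139 and 134 reads, 1.09 ± 0.22). GAP43 (503 and 622 against 159 and 135, -1.96 ± 0.14), CHGA (192 and 183 against 33 and 26, -2.71 ± 0.23) and TUBB3 (675 and 815 against 611 and 476, -0.49 ± 0.11) were lower, and STMN2, ELAVL4 and NEFL were at 0. The part of other cells in these values was not tested.

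Among the lineage programs, factors of the endometrial epithelium were mostly higher in B212: 17 (15, 13, 7 and 12) of 23 tested were higher and 2 (1, 2, 1 and 1) lower, with a median log2 fold change of 0.51 against 0.0042 over all tested genes. EHF, an ETS factor of epithelia, had 1748 and 2156 reads in A4 and 5140 and 5991 in B212 (1.49 ± 0.08, adjusted p = 1.15e-11). TFAP2C (253 and 287 against 768 and 653 reads, 1.36 ± 0.12) and TFAP2A (275 and 266 against 702 and 633, 1.27 ± 0.13), factors of early epithelial lineages, were higher too. KLF4, a factor of epithelial differentiation, had 332 and 325 reads in A4 and 197 and 134 in B212 and was lower (-1.04 ± 0.15). The list of epithelial state genes had a smaller median, 0.24, with 14 (11, 10, 6 and 8) of 25 higher and 2 (1, 2, 1 and 0) lower. CLDN4 was the only member past a log2 fold change of 1, and OVOL1, a repressor of the mesenchymal state (75 and 64 against 151 and 117 reads, 0.90), was not called without A4 E2 (0.71) or B212 DMSO (0.80).

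Genes of the mesenchymal state showed wider differences. Of 24 tested, 15 (15, 14, 15 and 14) were lower in B212 and 5 (5, 2, 2 and 3) higher, and 13 of those lower passed a log2 fold change of 1, against 3.96% of all genes. The median was -1.25. The repressor SNAI2 had 27 and 48 reads in A4 and 0 and 0 in B212, at least 25.5-fold lower in B212, and the intermediate filament gene VIM had 30 and 19 reads in A4 and 0 and 1 in B212, a ratio of A4 to B212 of 50.1 (95% interval 8.58 to 2017). Among matrix genes COL5A1 and TGFBI are given above. SPARC, a matrix glycoprotein, had 225 and 229 reads in A4 and 41 and 35 in B212 (-2.61 ± 0.21). AXL, a receptor tyrosine kinase, had 1356 and 1423 reads in A4 and 279 and 236 in B212 (-2.47 ± 0.11). The members that were higher were THY1, CDH2 (N-cadherin, 0.34), TNC (tenascin C, 0.39), FSTL1 (0.68) and CALD1 (0.25). TNC, FSTL1 and CDH2 contributed most to the summed level in B212, which is not scaled for gene length. That sum was 3552 to 4018 CPM in A4 and 3691 to 4406 CPM in B212, and within each treatment it was not lower in B212. With the requirement of at least 10 reads in every library, which takes out the members that were nearly absent from B212, the median was -0.56.

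**Figure D3:**
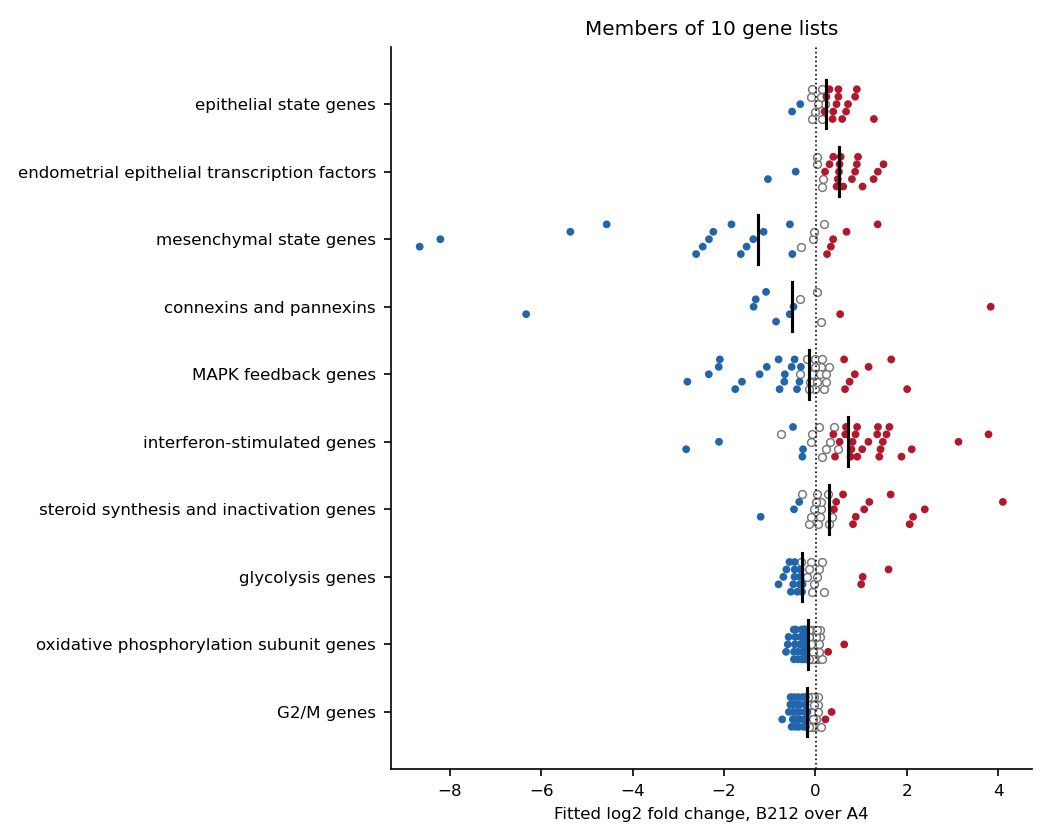
Fitted log2 fold change (horizontal axis, B212 over A4) of each tested member of 10 gene lists. Red and blue points passed the test and open points did not, the black bar is the list's median and the dotted line the median of all tested genes (0.0042); among mesenchymal state genes COL5A1 lies furthest to the left, and the glycolysis, oxidative phosphorylation and G2/M lists stay above -1.

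Called keratins of simple epithelium were higher in B212, and those of stratified epithelium went both ways. Among 7 tested keratins of simple epithelium 5 (3, 3, 4 and 3) were higher and none lower, with KRT23 at 539 and 696 reads in A4 and 2455 and 2053 in B212 (1.84 ± 0.10) beside KRT19. Of 7 tested keratins of stratified epithelium 2 (1, 1, 1 and 2) were higher and 2 (2, 2, 2 and 2) lower. KRT6A had 1573 and 1293 reads in A4 and 47 and 47 in B212. KRT5, the basal cell keratin, had 4722 and 4348 reads in A4 and 1226 and 729 in B212 (-2.29 ± 0.09). Both were lower in B212. KRT17, which is also induced in stressed epithelium, had 242 and 262 reads in A4 and 1969 and 1206 in B212 and was higher (2.59 ± 0.12). The keratins of the stratified type thus followed no single direction.

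HOX genes, which set position along the body and the uterine tract, were higher in 10 (8, 8, 7 and 8) and lower in 6 (5, 4, 4 and 4) of 32 tested. The share called, 50.0%, was near that of all genes (51.0%), and the largest differences were in single members. HOXB3 had 390 and 405 reads in A4 and 2307 and 1703 in B212 (2.29 ± 0.10). HOXB4 had 228 and 299 reads in A4 and 781 and 613 in B212 (1.37 ± 0.13). HOXC6 had 81 and 106 reads in A4 and 15 and 16 in B212 (-2.60 ± 0.31). HOXC8 had 41 and 38 reads in A4 and 2 and 4 in B212 (-3.70 ± 0.53). Called members of the HOXB cluster were higher and those of the HOXC cluster lower among the genes named by size. Nuclear receptors numbered 15 (12, 9, 10 and 8) higher and 10 (7, 8, 4 and 5) lower of 36 tested. PGR, the progesterone receptor and a classical target of estrogen receptor alpha, had 3777 and 5914 reads in A4 and 480 and 1145 in B212, so that even the A4 DMSO library was above the B212 E2 library (-2.67 ± 0.14, adjusted p = 4.52e-12). The thyroid hormone receptor THRB had 720 and 694 reads in A4 and 3800 and 2914 in B212 (2.21 ± 0.09). The orphan receptor NR2F1 had 101 and 92 reads in A4 and 477 and 392 in B212 (2.13 ± 0.16). PPARG, a lipid-sensing receptor, had 52 and 45 reads in A4 and 12 and 8 in B212 (-2.32). NR2E1 had 26 and 36 reads in A4 and 0 and 1 in B212. The SOX and FOX lists also had called shares at or below that of all genes (41.7% and 50.0%). Of 12 SOX genes 4 (3, 2, 2 and 3) were higher and 1 (0, 1, 0 and 0) lower, led by SOX6 (225 and 189 against 2366 and 1686 reads, 3.24 ± 0.11), and of 30 FOX genes 9 (8, 6, 5 and 6) were higher and 6 (3, 5, 3 and 4) lower, among them FOXP2 (1.74 ± 0.25), FOXQ1 (-1.50 ± 0.10) and FOXF2 (-1.83 ± 0.21).

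Secreted products of the uterine epithelium were higher in 10 (9, 9, 7 and 9) and lower in 6 (6, 5, 5 and 6) of 21 tested. MUC16, the mucin that carries the CA-125 antigen, had 230 and 263 reads in A4 and 3072 and 3080 in B212 (3.62 ± 0.10, adjusted p = 1.98e-16), and CP, the copper-carrying ferroxidase ceruloplasmin, had 11 and 7 reads in A4 and 873 and 680 in B212 (6.37 ± 0.21). Clusterin, CLU, had 1249 and 1423 reads in A4 and 235 and 176 in B212 (-2.74 ± 0.12), and osteopontin, SPP1, had 292 and 490 reads in A4 and 78 and 66 in B212 (-2.43 ± 0.18). Olfactomedin 1, OLFM1, had 34 and 85 reads in A4 and 5 and 9 in B212 (-3.02 ± 0.40), and all 3 were lower in B212. The list thus held large changes in both directions. Of 34 imprinted genes, which are read from the copy of a single parent, 15 (11, 11, 7 and 8) were higher and 7 (4, 5, 2 and 3) lower, with DIRAS3 at 18 and 21 reads in A4 and 139 and 139 in B212 (2.81 ± 0.27).

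**Figure D4:**
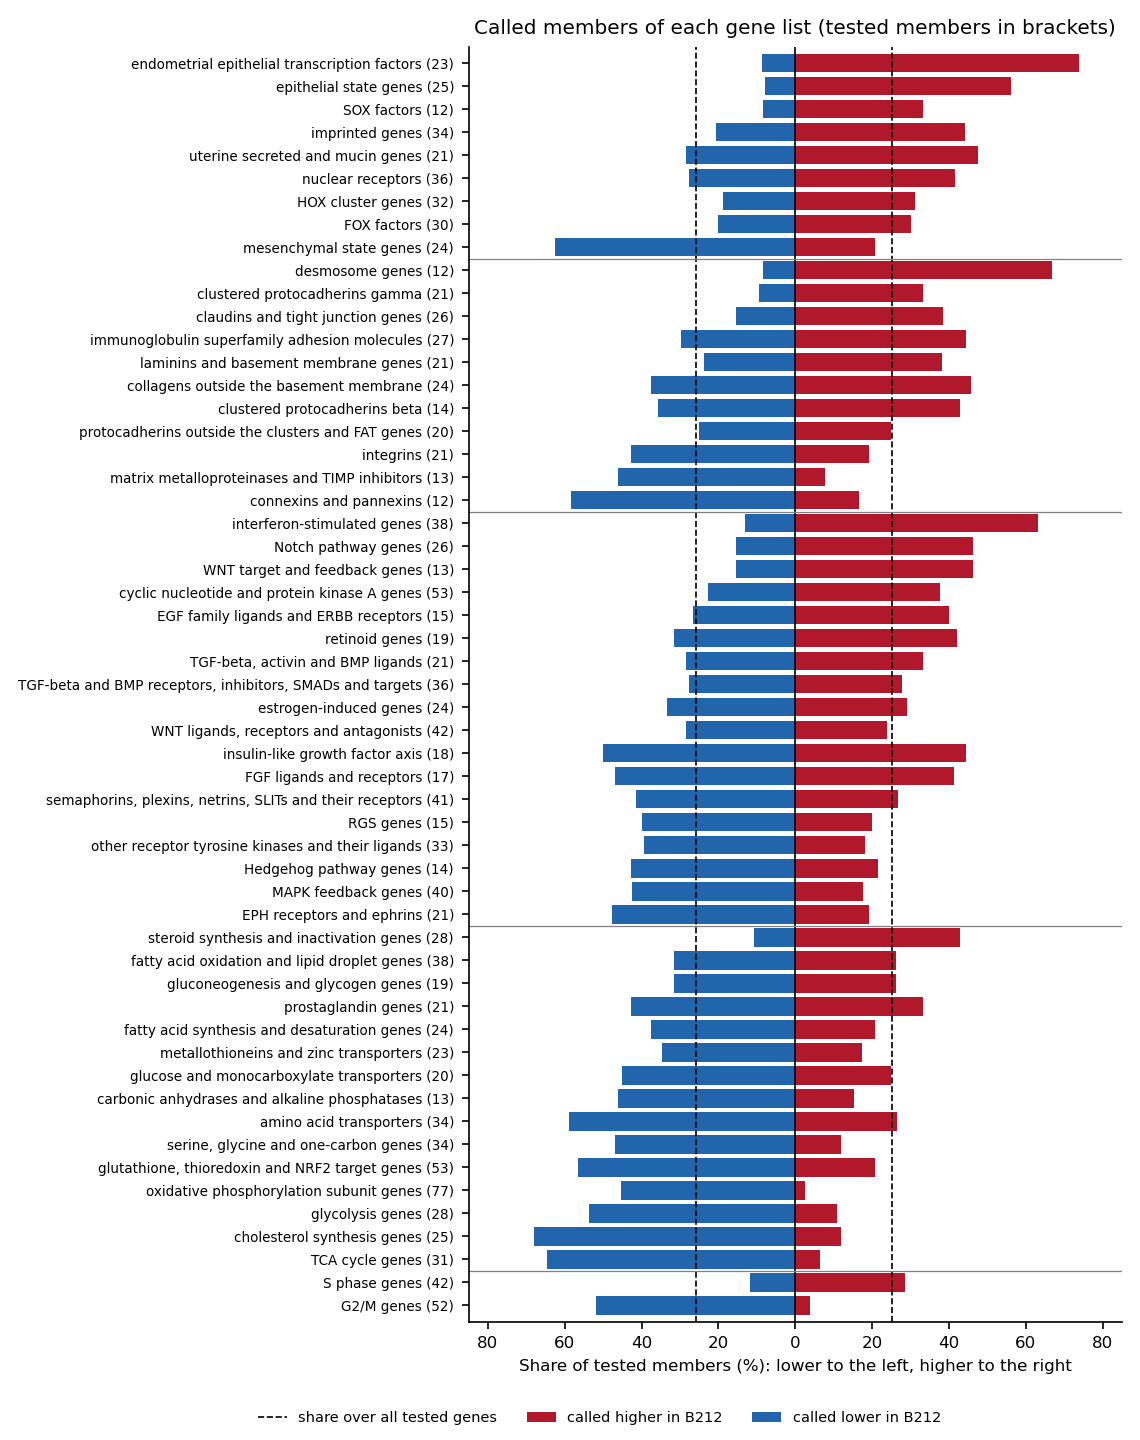
Share of the tested members of each gene list with at least 10 of them that were called higher (red, to the right) or lower (blue, to the left) in B212, in percent, with the number tested in brackets and lists grouped as lineage, adhesion, signalling, metabolism and cell cycle. The dashed lines mark the shares over all tested genes (25.2% higher and 25.8% lower); epithelial factors extend furthest to the right, and cholesterol synthesis, TCA cycle and mesenchymal state genes furthest to the left.

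Among adhesion genes, the clustered protocadherins gave some of the largest differences. These cadherin-like proteins are read from alpha, beta and gamma clusters, each variable exon has its own promoter, and a cell uses a few of them. The 3 alpha members with enough reads were all lower in B212: PCDHAC1 as above, PCDHAC2 with 292 and 305 reads in A4 and 35 and 32 in B212 (-3.18 ± 0.20) and PCDHA4 with 98 and 114 reads in A4 and 32 and 47 in B212 (-1.45 ± 0.26). Of 14 beta members, which are single-exon genes, 6 (5, 4, 2 and 4) were higher and 5 (4, 5, 5 and 4) lower. Next to the rise of PCDHB5 by 7.90, its neighbour in number PCDHB6 had 265 and 249 reads in A4 and 23 and 13 in B212 (-3.88 ± 0.24). PCDHB12 had 157 and 205 reads in A4 and 58 and 46 in B212 (-1.82 ± 0.21). PCDHB3 had 39 and 54 reads in A4 and 20 and 4 in B212 (-2.02 ± 0.44). PCDHB9 had 11 and 13 reads in A4 and 61 and 27 in B212 (1.76 ± 0.40) and was not called without the B212 DMSO library (1.22). Members of 1 cluster thus went in opposite directions in the same cells.

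The promoters of beta members are shown because members of the cluster that share a sequence element differed in direction. The 9-base run most often shared by the 14 beta promoters in RefSeq's table (GRCh38.p14) was GGTGGCGCT, found on either strand of the 250 bases before the start in 12 of 14 of them (85.7%), in 0 of 33 alpha and gamma promoters and in 144 of 35116 promoters in the table (0.41%). The run was chosen as the most shared in these promoters, so the shares are a description. The last 100 bases before the start follow, all on the plus strand, 5′ to 3′, with that run in capitals, first for PCDHB5 and PCDHB9, which were higher in B212, and then for PCDHB2, PCDHB3 and PCDHB12, which were lower.
PCDHB5, chr5:141135106-141135205: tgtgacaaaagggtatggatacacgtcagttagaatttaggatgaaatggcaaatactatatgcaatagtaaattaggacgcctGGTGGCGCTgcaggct
PCDHB9, chr5:141187061-141187160: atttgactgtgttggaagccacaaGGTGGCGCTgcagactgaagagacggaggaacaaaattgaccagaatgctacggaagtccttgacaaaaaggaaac
PCDHB2, chr5:141094515-141094614: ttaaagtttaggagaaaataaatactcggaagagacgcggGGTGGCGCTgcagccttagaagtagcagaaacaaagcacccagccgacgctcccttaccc
PCDHB3, chr5:141100373-141100472: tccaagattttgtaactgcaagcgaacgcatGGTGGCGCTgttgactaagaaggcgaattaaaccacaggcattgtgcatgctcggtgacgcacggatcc
PCDHB12, chr5:141208619-141208718: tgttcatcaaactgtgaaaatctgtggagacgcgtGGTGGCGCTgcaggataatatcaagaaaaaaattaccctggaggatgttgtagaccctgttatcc
All 5 hold the run, at 7 (PCDHB5), 67 (PCDHB9), 51 (PCDHB2), 60 (PCDHB3) and 56 (PCDHB12) bases before the annotated start. Tested members with the run that are not shown ranged from -0.45 (PCDHB14) to 0.99 (PCDHB10), with PCDHB15 at 0.041. PCDHB8 (0.89) lacks the run. These members were named after their values were seen, and a relation of the run to direction was not tested. PCDHB2 (327 and 378 against 167 and 154 reads, -1.16 ± 0.15) was chosen for display after its values were seen. A match is a run of letters and not a measured binding site.

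Gamma members were higher in 7 (6, 4, 6 and 5) and lower in 2 (0, 1, 1 and 0) of 21 tested. PCDHGA4 had 50 and 70 reads in A4 and 1173 and 927 in B212 (4.09 ± 0.15, adjusted p = 1.11e-14), and PCDHGB1 (1.20 ± 0.16), PCDHGB2 (1.32 ± 0.19) and PCDHGA5 (1.64 ± 0.33) rose by less. The called share of gamma members was 42.9%, below the 51.0% of all genes. Gamma and alpha transcripts share constant exons, so how the authors' counting split those reads between members is uncertain. Protocadherins outside the clusters, with the FAT genes, were higher in 5 (6, 4, 3 and 5) and lower in 5 (2, 3, 2 and 1) of 20. The called share of that list was 50.0%, near the 51.0% of all genes. PCDH19 had 455 and 436 reads in A4 and 3730 and 2697 in B212 (2.80 ± 0.09). PCDH15 had 12 and 16 reads in A4 and 136 and 104 in B212 (3.05 ± 0.30). PCDH7 had 1762 and 1846 reads in A4 and 946 and 678 in B212 (-1.20 ± 0.09).

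**Figure D5:**
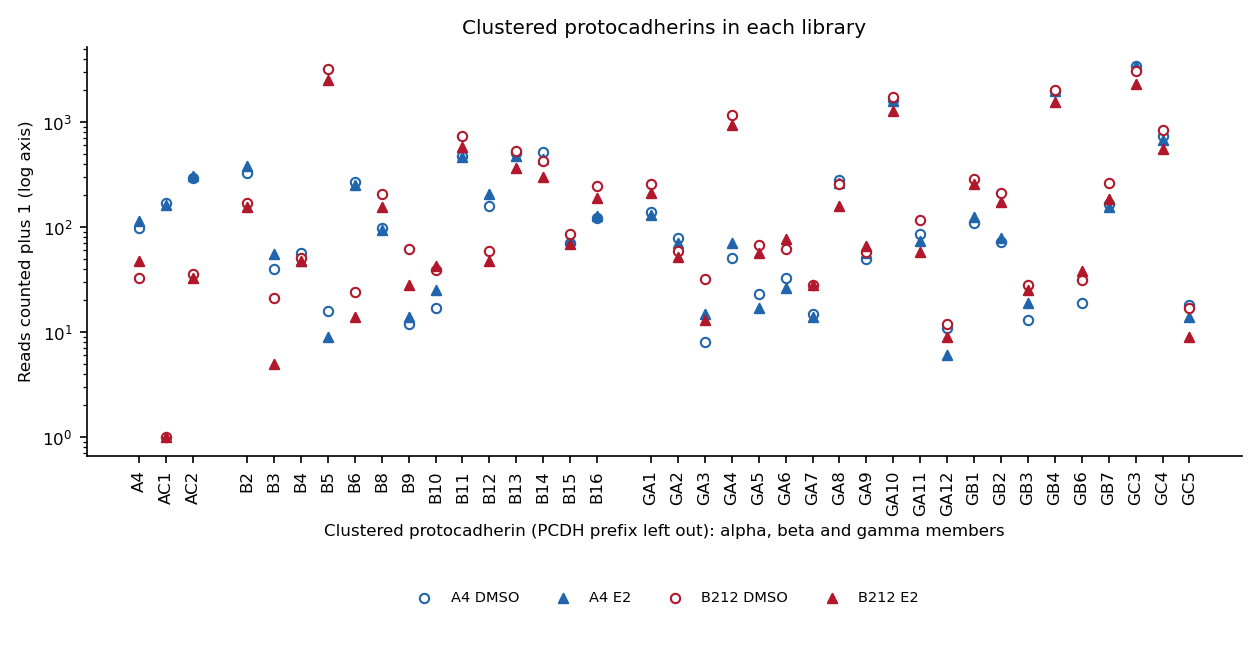
Reads counted plus 1 in each library (vertical log axis) for the 38 tested clustered protocadherins of the alpha, beta and gamma clusters. Blue marks are A4, red marks B212, open circles DMSO and filled triangles E2; B5 and GA4 are high in B212 alone, and AC1, AC2 and B6 are high in A4.

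Junction genes differed in part by class. Of 9 classical and type II cadherins, 6 (6, 4, 2 and 4) were higher and none lower in B212. CDH6, a type II cadherin first described in kidney, had 14719 and 14163 reads in A4 and 139729 and 97162 in B212 (2.98 ± 0.08, adjusted p = 6.18e-17). CDH3, P-cadherin, had 3828 and 3997 reads in A4 and 7659 and 5815 in B212 (0.74 ± 0.07). Desmosome genes, which anchor keratin filaments at cell contacts, were higher in 8 (8, 5, 3 and 5) and lower in 1 (0, 1, 0 and 0) of 12, with PKP1 at 525 and 344 reads in A4 and 1585 and 744 in B212 (1.33 ± 0.11). DSC1 had 17 and 10 reads in A4 and 83 and 42 in B212 (2.12 ± 0.35). Catenins were higher in 5 (4, 2, 1 and 1) of 8, led by CTNND2 (1005 and 1012 against 2394 and 2592 reads, 1.28 ± 0.10). The catenin median was 0.23, but 0.037 without A4 E2 and -0.0018 without B212 DMSO. Tight junction genes were higher in 10 (8, 7, 4 and 6) and lower in 4 (3, 3, 3 and 3) of 26. Their called share, 53.8%, was near that of all genes (51.0%). Connexins went the other way from cadherins. Of 12 tested 7 (5, 7, 6 and 4) were lower and 2 (2, 1, 1 and 2) higher, with a median of -0.52. Beside GJA1, GJA3 had 293 and 295 reads in A4 and 141 and 97 in B212 (-1.35 ± 0.16). GJC1 had 305 and 278 reads in A4 and 139 and 104 in B212 (-1.31 ± 0.16), and the summed level of connexins and pannexins was 486 to 527 CPM in A4 and 56.9 to 63.0 CPM in B212. Most of the A4 sum was GJA1: without it the sum was 65.9 to 79.1 CPM in A4 and 51.0 to 58.1 CPM in B212.

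Genes of the matrix and its receptors split within each class. Integrins were higher in 4 (4, 4, 2 and 3) and lower in 9 (6, 7, 3 and 4) of 21 tested, with ITGB8, a subunit of the receptor that activates latent TGF-beta, at 7365 and 6451 reads in A4 and 25260 and 17527 in B212 (1.58 ± 0.07). ITGB3 had 3958 and 2904 reads in A4 and 2354 and 1207 in B212 (-1.04 ± 0.08). Basement membrane genes were higher in 8 (8, 5, 5 and 5) and lower in 5 (4, 4, 4 and 3) of 21. The type IV collagen chains COL4A1 (918 and 848 against 275 and 180 reads, -2.01 ± 0.12) and COL4A2 (2131 and 1783 against 720 and 484, -1.75 ± 0.09) and their linker nidogen, NID1 (1243 and 1077 against 462 and 322, -1.62 ± 0.11), were lower. Perlecan, HSPG2, had 4005 and 3711 reads in A4 and 11212 and 7289 in B212 and was higher (1.20 ± 0.07), as was the laminin chain LAMC3 (206 and 182 against 605 and 505 reads, 1.48 ± 0.14). Other collagens were higher in 11 (10, 8, 8 and 8) and lower in 9 (7, 8, 8 and 7) of 24: COL9A1 rose (23 and 34 against 314 and 200 reads, 3.11 ± 0.23) and COL25A1 fell (124 and 137 against 22 and 18, -2.73 ± 0.27). Matrix metalloproteinases and TIMP inhibitors were higher in 1 (1, 1, 1 and 1) and lower in 6 (2, 3, 2 and 2) of 13. Their called share, 53.8%, was near that of all genes (51.0%), and their median was -0.044. MMP16, a membrane-bound protease, had 47 and 44 reads in A4 and 532 and 445 in B212 (3.39 ± 0.17). The inhibitor TIMP3 had 190 and 191 reads in A4 and 111 and 50 in B212 (-1.34 ± 0.21). Immunoglobulin adhesion molecules were higher in 12 (7, 5, 3 and 6) and lower in 8 (7, 7, 5 and 5) of 27, with NCAM2 and LSAMP as above and NEGR1 lower (349 and 364 against 138 and 119 reads, -1.51 ± 0.15).

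Signalling genes were described from the contact between cells inward. EPH receptors and ephrins, which signal between touching cells, were lower in 10 (6, 10, 5 and 6) and higher in 4 (3, 3, 2 and 2) of 21. After EPHA5, EPHA3 had 1861 and 2324 reads in A4 and 310 and 290 in B212 (-2.82 ± 0.10). EPHA7 had 960 and 995 reads in A4 and 251 and 178 in B212 (-2.23 ± 0.12). EPHB2 had 7761 and 6934 reads in A4 and 3353 and 2383 in B212 (-1.41 ± 0.07). Genes of semaphorins, plexins, netrins and SLITs were lower in 17 (8, 16, 10 and 8) and higher in 11 (9, 4, 5 and 4) of 41. The semaphorin coreceptor NRP1 had 77 and 126 reads in A4 and 2 and 5 in B212 (-4.81 ± 0.41). NTNG1, a netrin, had 103 and 60 reads in A4 and 309 and 174 in B212 (1.51 ± 0.18).

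Growth factor ligands and receptors followed no single direction. In the EGF family 6 (6, 2, 3 and 3) of 15 genes were higher and 4 (3, 4, 2 and 3) lower. NRG1 was the only member below a log2 fold change of -1. Of 33 other receptor tyrosine kinases and ligands 13 (10, 12, 11 and 11) were lower and 6 (5, 3, 2 and 3) higher. KIT had 2449 and 2580 reads in A4 and 476 and 350 in B212 (-2.65 ± 0.10). RET, the GDNF receptor, had 140 and 163 reads in A4 and 3 and 10 in B212 (-4.54 ± 0.35). AXL was given above. In the FGF list 7 (6, 6, 5 and 6) of 17 were higher and 8 (7, 8, 7 and 6) lower. The receptor FGFR2, which carries epithelial responses to stromal FGFs, had 1873 and 1429 reads in A4 and 7215 and 4234 in B212 (1.73 ± 0.08), while the ligands FGF1 (89 and 67 against 2 and 3 reads, -4.95 ± 0.47) and FGF19 (180 and 321 against 38 and 74, -2.17 ± 0.20) were lower. In the insulin-like growth factor axis 8 (8, 6, 5 and 6) of 18 were higher and 9 (7, 7, 7 and 6) lower. IGFBP3, the binding protein that carries most circulating ligand, had 24510 and 22248 reads in A4 and 11336 and 5965 in B212 (-1.53 ± 0.08). STC1, which inhibits the protease that frees ligand from binding proteins, had 177 and 150 reads in A4 and 6 and 1 in B212 (-5.57 ± 0.37).

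MAPK feedback genes are induced by ERK activity and many of their products limit it. Of 40 tested, 17 (15, 14, 12 and 11) were lower and 7 (5, 5, 5 and 4) higher in B212, and 8 of those lower passed a log2 fold change of 1. SPRY4, a Sprouty inhibitor, had 8592 and 8553 reads in A4 and 1339 and 1175 in B212 (-2.80 ± 0.08, adjusted p = 2.87e-16). The ETS factors ETV4 and ETV5 had 3501 and 3301 reads in A4 and 971 and 658 in B212 (-2.12 ± 0.09) and 4815 and 4371 reads in A4 and 1146 and 1054 in B212 (-2.09 ± 0.09). The AP-1 subunit FOSL1 had 137 and 122 reads in A4 and 31 and 22 in B212 (-2.33 ± 0.25). DUSP4, a phosphatase of ERK, went the other way (2.01 ± 0.23). The median of the list was -0.13, and the members that were not called numbered 16.

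Genes of developmental pathways differed at single members. In the Hedgehog list 6 (6, 5, 5 and 5) of 14 were lower and 3 (4, 0, 1 and 0) higher: the transcription factors GLI1 (455 and 375 against 176 and 120 reads, -1.54 ± 0.14), GLI2 (96 and 62 against 19 and 15, -2.25 ± 0.32) and GLI3 (80 and 89 against 15 and 12, -2.67 ± 0.32) and the coreceptor BOC (5204 and 5032 against 1416 and 1372, -1.91 ± 0.09) were all lower in B212. WNT ligands, receptors and antagonists were higher in 10 (7, 7, 4 and 5) and lower in 12 (8, 12, 10 and 7) of 42. Their called share was 52.4%, near the 51.0% of all genes. RNF43, a ubiquitin ligase that removes WNT receptors, had 90 and 67 reads in A4 and 516 and 489 in B212 (2.65 ± 0.17). The receptor ROR2 had 98 and 81 reads in A4 and 2 and 6 in B212 (-4.48 ± 0.44). The antagonist DKK1 had 54 and 63 reads in A4 and 12 and 11 in B212 (-2.36 ± 0.36). RSPO4, which blocks RNF43, had 46 and 47 reads in A4 and 0 and 0 in B212, at least 31.7-fold lower in B212. Targets of the pathway were higher in 6 (6, 3, 3 and 3) and lower in 2 (2, 2, 2 and 2) of 13: LEF1 (1.26 ± 0.20) and NKD1 (1.36 ± 0.15) rose and APCDD1 (-2.26 ± 0.19) fell. Notch genes were higher in 12 (9, 7, 6 and 8) and lower in 4 (2, 4, 3 and 2) of 26, with the ligand DLL1 at 47 and 53 reads in A4 and 303 and 298 in B212 (2.56 ± 0.19). The target HEY1 had 514 and 643 reads in A4 and 293 and 281 in B212 (-1.03 ± 0.12).

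TGF-beta and BMP ligands were higher in 7 (7, 6, 5 and 5) and lower in 6 (5, 6, 5 and 5) of 21, and their receptors, inhibitors, SMADs and targets in 10 (8, 2, 2 and 4) and 10 (7, 8, 6 and 6) of 36. The called share of the receptor and target list was 55.6%, against 51.0% of all genes. LEFTY2, a nodal antagonist of endometrium, had 589 and 578 reads in A4 and 2600 and 1934 in B212 (1.91 ± 0.09). Its paralog LEFTY1 had 39 and 39 reads in A4 and 9 and 8 in B212 (-2.22 ± 0.42), the opposite direction. The BMP antagonist NOG had 83 and 45 reads in A4 and 6 and 4 in B212 (-3.72 ± 0.43). All 5 members of the receptor and target list past a log2 fold change of 1 were lower in B212. Retinoid genes were higher in 8 (5, 6, 5 and 4) and lower in 6 (5, 6, 5 and 3) of 19. The vitamin A importer STRA6 had 194 and 172 reads in A4 and 11 and 7 in B212 (-4.38 ± 0.29). CRABP1, a carrier of retinoic acid, had 111 and 138 reads in A4 and 15 and 9 in B212 (-3.39 ± 0.31). The receptor RARB had 46 and 51 reads in A4 and 132 and 124 in B212 (1.37 ± 0.23).

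Cyclic nucleotide and protein kinase A genes were higher in 20 (15, 15, 11 and 13) and lower in 12 (8, 9, 7 and 7) of 53. Beside PPP1R1A, the natriuretic peptide clearance receptor NPR3 had 1994 and 1966 reads in A4 and 406 and 359 in B212 (-2.41 ± 0.10). The phosphodiesterase PDE1B had 100 and 130 reads in A4 and 6 and 4 in B212 (-4.51 ± 0.37), and the phosphodiesterase PDE4B had 20 and 24 reads in A4 and 120 and 94 in B212 (2.24 ± 0.28). RGS genes, which shorten G protein signals, were higher in 3 (3, 3, 2 and 3) and lower in 6 (6, 4, 4 and 5) of 15, with RGS4 at 286 and 277 reads in A4 and 22 and 15 in B212 (-3.97 ± 0.23). RGS10 had 243 and 674 reads in A4 and 1457 and 2477 in B212 (2.18 ± 0.10). Within each clone the RGS10 count was higher in the E2 library than in the DMSO library.

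Of 38 interferon-stimulated genes tested, 24 (20, 20, 15 and 21) were higher and 5 (3, 2, 2 and 2) lower, against 25.2% and 25.8% of all genes, with a median of 0.72 (0.71 in the DMSO pair and 0.59 in the E2 pair). GBP1, a guanylate-binding protein, had 88 and 153 reads in A4 and 1089 and 1022 in B212 (3.13 ± 0.14, adjusted p = 2.21e-13). IFI44 had 64 and 94 reads in A4 and 344 and 341 in B212 (2.11 ± 0.17). EPSTI1 had 6 and 6 reads in A4 and 85 and 86 in B212 (3.78 ± 0.38). The classical members IFIT1 (1.40), IFIT2 (1.47), MX1 (0.91) and ISG15 (0.88) were also called higher. The members that were lower included IFITM2 (-0.29), IFITM3 (-0.27), HLA-B and HLA-C. HLA-B had 69 and 54 reads in A4 and 12 and 6 in B212 (-2.83 ± 0.38). HLA-C had 215 and 253 reads in A4 and 49 and 61 in B212 (-2.11 ± 0.20). HLA and IFITM genes have near-identical copies, so their counts are uncertain.

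Estrogen-induced genes, taken from a list of known targets, were higher in 7 (3, 5, 6 and 2) and lower in 8 (8, 7, 5 and 7) of 24 tested. PGR is given above. RET and OLFM1, also given above, belong to this list too, and IGFBP4 had 54 and 57 reads in A4 and 19 and 9 in B212 (-2.04 ± 0.36). PDZK1, a scaffold protein of membrane transporters, had 20 and 16 reads in A4 and 483 and 446 in B212 and went the other way (4.65 ± 0.21). Past a log2 fold change of 1, 4 members were lower and 2 higher. The clones differed in single members of this list, and the list as a whole had a median of -0.043. Whether these members respond to the receptor in these cells was not tested.

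Metabolic lists showed many small differences, and most lists had more members lower than higher in B212. Glycolysis genes were lower in 15 (13, 11, 7 and 4) and higher in 3 (4, 3, 3 and 3) of 28, with a median of -0.30 (-0.24 when scaled by library size alone). LDHA, lactate dehydrogenase A (70971 and 92188 against 53343 and 48226 reads, -0.70), PFKP, a phosphofructokinase (5431 and 5588 against 3623 and 2842, -0.81), and ENO1, an enolase (125788 and 142370 against 103968 and 85049, -0.54), lay on the lower side. ENO3, the muscle enolase (296 and 311 against 626 and 640, 1.03 ± 0.13), and PGAM2, the muscle phosphoglycerate mutase (34 and 22 against 94 and 80, 1.60 ± 0.29), were higher. The glucose transporter SLC2A1, also called GLUT1, had 26281 and 26503 reads in A4 and 9907 and 7524 in B212 (-1.64 ± 0.07, adjusted p = 1.33e-13). The sodium-glucose transporter SLC5A1 had 368 and 290 reads in A4 and 122 and 71 in B212 (-1.84 ± 0.16). Glucose and monocarboxylate transporters as a list were higher in 5 (4, 5, 4 and 4) and lower in 9 (7, 7, 6 and 6) of 20, and gluconeogenesis and glycogen genes in 5 (4, 3, 1 and 3) and 6 (5, 5, 3 and 3) of 19.

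Called mitochondrial genes were mostly lower in B212. TCA cycle genes were lower in 20 (18, 12, 5 and 5) and higher in 2 (2, 0, 0 and 0) of 31, with a median of -0.24 (-0.22 in the DMSO pair and -0.29 in the E2 pair). ME1, the cytosolic malic enzyme, had 10908 and 14242 reads in A4 and 8669 and 7945 in B212 and was lower (-0.62 ± 0.07). Oxidative phosphorylation subunits were lower in 35 (52, 10, 1 and 7) and higher in 2 (0, 6, 0 and 0) of 77. Their median was -0.039 in the DMSO pair and -0.30 in the E2 pair, and their summed level was 9587 CPM in A4 DMSO, 12262 in A4 E2, 8856 in B212 DMSO and 9829 in B212 E2. The A4 E2 library stood highest, and without it the median was 0.021. Of the 4 fits with a library left out, only the one without A4 DMSO called more subunits lower than the fit of all 4 libraries. PPARGC1A, a coactivator of mitochondrial genes, had 75 and 72 reads in A4 and 731 and 573 in B212 and was higher (3.11 ± 0.15).

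Lipid genes were split. Cholesterol synthesis genes were lower in 17 (15, 9, 5 and 5) and higher in 3 (1, 1, 0 and 0) of 25, with a median of -0.26 (-0.19 by library size alone). SQLE, squalene epoxidase, had 4685 and 4541 reads in A4 and 2267 and 1782 in B212 (-1.23 ± 0.08). Genes of fatty acid synthesis were higher in 5 (4, 3, 1 and 3) and lower in 9 (6, 8, 4 and 3) of 24, where MLXIPL, the carbohydrate-responsive factor ChREBP, had 412 and 514 reads in A4 and 1294 and 1709 in B212 (1.67 ± 0.11). The elongase ELOVL2 had 489 and 478 reads in A4 and 247 and 240 in B212 (-1.02 ± 0.14). Fatty acid oxidation and lipid droplet genes were higher in 10 (9, 5, 4 and 2) and lower in 12 (9, 7, 4 and 6) of 38. The peroxisomal oxidase ACOX2 had 202 and 218 reads in A4 and 45 and 53 in B212 (-2.12 ± 0.21). FABP6, a carrier of bile acids, had 132 and 211 reads in A4 and 657 and 684 in B212 (1.97 ± 0.13).

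Amino acid, folate and redox genes had more members lower than higher. Amino acid transporters were lower in 20 (16, 16, 13 and 13) and higher in 9 (9, 6, 5 and 5) of 34, with a median of -0.31. SLC6A17 had 765 and 707 reads in A4 and 17 and 14 in B212 (-5.60 ± 0.19). SLC6A15 had 3196 and 3539 reads in A4 and 1209 and 981 in B212 (-1.66 ± 0.08). The peptide transporter SLC15A2 had 337 and 373 reads in A4 and 3805 and 3416 in B212 (3.32 ± 0.09). Serine, glycine and one-carbon genes were lower in 16 (12, 13, 8 and 8) and higher in 4 (2, 4, 2 and 2) of 34. The serine synthesis enzymes PHGDH (-0.49), PSAT1 (-0.60) and PSPH (-0.61) were all lower, and the folate receptor FOLR1 had 315 and 369 reads in A4 and 1960 and 1459 in B212 and was higher (2.28 ± 0.11). Glutathione, thioredoxin and NRF2 target genes were lower in 30 (24, 19, 9 and 10) and higher in 11 (7, 7, 8 and 7) of 53. The glutathione transferases GSTA1 (4 and 9 against 618 and 572 reads, 6.47 ± 0.24) and MGST1 (2993 and 3653 against 11336 and 9756, 1.64 ± 0.07) and the gamma-glutamyltransferase GGT6 (25 and 25 against 653 and 503, 4.48 ± 0.18) rose, and GSTM4 (227 and 244 against 6 and 2, -5.88 ± 0.33) fell. GSTA and GSTM genes are near-identical copies, and the split of reads between them is uncertain.

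Among genes of steroid synthesis and inactivation, 12 (11, 11, 9 and 9) of 28 tested were higher and 3 (3, 3, 1 and 1) lower, with a median of 0.29. The called share was 53.6%, against 51.0% of all genes. The aldo-keto reductases AKR1C1 (73 and 71 against 341 and 276 reads, 2.06 ± 0.17) and AKR1C3 (30 and 32 against 192 and 144, 2.39 ± 0.23), which reduce progesterone and other steroids and are close copies, the sulfotransferase SULT2B1 (218 and 262 against 1260 and 912, 2.13 ± 0.12) and HSD11B2, which inactivates cortisol (159 and 225 against 485 and 733, 1.64 ± 0.14), were called with each library left out. Prostaglandin genes were higher in 7 (3, 5, 5 and 3) and lower in 9 (7, 7, 5 and 5) of 21, with the receptor PTGER3 at 1236 and 1738 reads in A4 and 3505 and 4089 in B212 (1.34 ± 0.08). The transporter SLCO2A1 had 7561 and 8631 reads in A4 and 3616 and 4114 in B212 (-1.10 ± 0.08). Carbonic anhydrases and alkaline phosphatases were lower in 6 (4, 5, 3 and 4) and higher in 2 (0, 1, 1 and 1) of 13. ALPP, placental alkaline phosphatase, which Ishikawa cells are known to induce with estrogen and which has a near-identical copy, had 1526 and 2042 reads in A4 and 703 and 1065 in B212 (-1.05 ± 0.11). Metallothioneins and zinc transporters were lower in 8 (4, 2, 2 and 3) and higher in 4 (2, 2, 1 and 2) of 23, and their called share of 52.2% was near the 51.0% of all genes. The zinc and manganese importer SLC39A8 had 9242 and 10701 reads in A4 and 66551 and 61006 in B212 and was higher (2.65 ± 0.08, adjusted p = 2.25e-16).

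Cell cycle genes differed by small amounts. S phase genes were higher in 12 (7, 6, 2 and 0) and lower in 5 (3, 1, 1 and 1) of 42, a called share of 40.5% against 51.0% of all genes, and no member passed a log2 fold change of 1. G2/M genes were lower in 27 (22, 15, 8 and 7) and higher in 2 (1, 1, 0 and 0) of 52, with a median of -0.19 (-0.12 by library size alone). AURKB, the kinase of the chromosomal passenger complex, had 3066 and 3938 reads in A4 and 2259 and 2029 in B212 (-0.73 ± 0.08).

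Called genes were also placed along the chromosomes. With 15260 of the tested genes placed in the gene order of RefSeq (GRCh38.p14), 1593 runs of 2 or more neighbours shared a direction, and 6 runs held at least 8. With 51.0% of tested genes called, many neighbours share a direction, and the length of the runs was not tested. From SKAP1 to HOXB7, 8 neighbours including HOXB2, HOXB3, HOXB4, HOXB5 and HOXB6 were all higher in B212, with a median of 1.24. From UBE2E2 to RARB, 9 neighbours including THRB and NR1D2 were higher, with a median of 0.68, and 8 neighbours from TRAM2-AS1 to ICK, among them GSTA1, GSTA2 and GSTA4, were higher with a median of 1.01. The longest run, 14 neighbours from ZNF404 to ZNF227, held zinc finger genes with smaller changes (0.26 to 0.87), and its end gene ZNF404 was called in no fit with a library left out. Another zinc finger run, 8 neighbours from ZNF417 to ZNF274, was higher with a median of 0.91. From TMEM127 to KANSL3, 8 neighbours were lower, with a median of -0.42.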

How the data were processed

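Poly(A) RNA of 4 samples was sequenced from stranded libraries made with 500 ng of RNA, per the labels' protocols. The build hg19 and the tools HISAT2, SAMtools, featureCounts and DESeq2 are named, without roles, per the submitters' processing notes; annotation and strand setting are not given in the sources used here. The deposited values are raw counts per gene, and 4 further columns of the table match no sample and were not used. Overlapping and antisense genes and near-identical copies are uncertain. Counts ran from 71575816 to 85222856 per library. No 2 libraries matched within counting error, so none was counted as a repeat deposit.

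Genes passing edgeR's filterByExpr (minimum count 10) were scaled by TMM and fitted with edgeR 4.0.16 (R 4.3.3) by quasi-likelihood on clone and treatment, with Benjamini-Hochberg adjustment, checked on simulated data. Shared clone numbers in the labels could not be used, since the columns carry none. Alternatives were DESeq2 1.42.0, limma 3.58.1 with voom, other scalings, filters and thresholds, no treatment term, each treatment alone and each library left out. The 66 gene lists and the comparison were chosen with earlier results of these data known. Named genes were the 12 highest and 12 lowest by fold at 10 CPM or more, up to 5 called members per list past a log2 fold change of 1 (or the 2 largest), ESR1, PGR, the marker genes, genes nearly absent from 1 clone and the ends of neighbour runs; CDH2, TNC, FSTL1, CALD1, IFITM2, IFITM3, LDHA, PFKP, ENO1, the IFIT genes, MX1, ISG15, PHGDH, PSAT1, PSPH, PCDHB2 and members inside runs were named after their values were seen. Intervals on count ratios are exact binomial at 95%. Promoter sequences are RefSeq's (GRCh38.p14); 14 beta protocadherins matched that table and PCDHB6 and PCDHB11 did not. A few genes that the rule names are not reported here.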

Additional observations from a re-analysis of the deposited data

Results flagged for a closer look

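Among the marker genes, 2 had a difference between the clones that pointed in opposite directions in the DMSO and the E2 libraries. TPPP3, a tubulin-binding protein of cilia, was at -0.37 in DMSO and 0.20 in E2 (log2, B212 minus A4), on 30 to 35 reads per library. SYT1, a synaptic vesicle protein, was at -0.039 in DMSO and 0.60 in E2, on 62 to 85 reads. Neither passed the edgeR test between the clones, and the difference between treatments was not tested.

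The medians of 6 gene lists also had opposite signs in the DMSO and E2 pairs, all within 0.23 of 0. They were the FOX factors (-0.077 and 0.046), keratins of stratified epithelium (0.23 and -0.13), beta protocadherins (-0.053 and 0.083), protocadherins outside the clusters with the FAT genes (-0.023 and 0.12), TGF-beta, activin and BMP ligands (-0.084 and 0.059) and gluconeogenesis and glycogen genes (0.071 and -0.027), with DMSO first. These differences were not tested either, and no direction of these lists as a whole is reported.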

How the results depend on the processing

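The 7950 calls depended on how the spread was estimated. Without the treatment term 4456 genes were called, 2297 higher and 2159 lower in B212. DESeq2 called 5538 genes, 2519 of them higher. With 1 library left out, 3094 to 5639 genes were called, 1735 to 2714 higher and 1359 to 2925 lower; those fits have fewer samples and no treatment term. A required log2 fold change of 1 left 1723 genes, 1106 higher and 617 lower. Scaling by library size alone gave 4761 higher and 3176 lower (60.0% of calls higher, against 49.4%) and moved the median of all genes by 0.067. Every gene called both in the reported fit and in 1 of these alternatives had the same direction in both. Of 294 named genes with a value, 279 were called and none of these changed direction under any alternative. Another 6 that were not called did so in at least 1: ESR1, KRT18, MCIDAS, TPPP3, SYT1 and MAP2. Of the 279 named genes that were called, 37 lost their call with DESeq2 and 15 without the treatment term. Some also lost it with 1 library left out. Over all 7950 called genes, 5538 kept their call with DESeq2 and 4456 without the treatment term. No paired analysis was possible on the numbers given in the labels because the columns carry none; the reported fit matches libraries by treatment through its treatment term. With 2 libraries per clone that differ in treatment, the spread holds both technical variation and any difference in the response to E2. KDR, with few reads, was among the genes that lost their call.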

Other observations

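Large differences between the libraries of 1 clone, in opposite directions in the clones or in 1 clone alone, stood out in 3 genes, which were picked after their values were seen. TRIM27, a gene of the extended HLA region, had 5 and 133 reads in A4 (DMSO and E2) and 96 and 0 in B212. VARS, a valyl tRNA synthetase gene of the same region, had 0 and 55 reads in A4 and 40 and 35 in B212, and UBE2Q2P2, a pseudogene, had 0 and 28 in A4 and 17 and 0 in B212. None of the 3 was called. Another 9 genes were called although the difference between the clones had opposite signs in DMSO and E2, among them EEF1A1, COX7B and RPL39, each of which belongs to a family with many processed pseudogenes.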
